A study of Cucumis sativus with 11 samples.

Results

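In leaves of cucumber seedlings, 23 of the 20165 listed genes were lower with silicon than without it when no salt was given, and also lower than with salt and silicon together. They were chosen on RPKM + 1, where RPKM stands for reads scaled by gene length and by library size. In each of them the higher of the silicon libraries was at most 1/1.5 of the lowest control library and at most 1/1.5 of the lowest salt plus silicon library, and the mean control level was at least 5 RPKM. That level was reached by 11937 genes. The salt libraries had no part in the choice and are the free readout. Genes are identified in the files by ID alone, and of the IDs in the reference table, which covers 23999 genes, 0 equalled one of theirs, so members are called by ID and no role is given for any of them. For the same reason the leaf origin of the RNA was not checked against leaf markers.

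Silicon is taken up by roots as silicic acid, moves to the shoot with the transpiration stream and is deposited in leaf walls. It is not counted among the essential nutrients of most plants, but feeding it to cucumber is known to ease several stresses. Excess sodium chloride in the root medium limits water uptake and brings sodium and chloride into the leaf, and both change leaf gene expression.

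Seedlings of the cultivar JinYou 1 were grown in nutrient solution, and all groups had the same solution, pH setting and greenhouse. Control plants (3 libraries) had no addition, salt plants (3) had 75 mM NaCl, silicon plants (2) had 0.3 mM silicon as sodium silicate, and salt plus silicon plants (3) had both. Sodium silicate also carries sodium, and the labels give no sodium-matched control. Recently expanded leaves were taken 3 days after the additions, and each library held 3 combined leaves, so a library averages over plants and cell types. In such bulk samples fewer cells of a type and less RNA per cell cannot be told apart.

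The libraries listed between 1711 and 2397 genes at 0 and summed to between 974471 and 1117430 RPKM. Absolute depth is unknown, since the values are RPKM without counts. From genes under 0.2 RPKM, where 1 read sets the step, depth relative to control 1 lay between 0.88 (salt 2) and 1.15 (salt plus silicon 3), an estimate that could not show a large difference. Across all 17408 genes tested, the median log2 difference from control was 0.18 for silicon, 0.14 for salt plus silicon and 0.11 for salt. These medians depended on how the libraries were scaled. With libraries scaled by median of ratios they were 0.007, -0.016 and -0.014 in the same order. Quantile normalized values gave -0.093, 0.021 and 0.025. The members stood low in the silicon libraries because the rule chose them so.

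The 23 members were genes of moderate level. Their mean control level ran from 5.49 to 233 RPKM with a median of 28.9 RPKM, against a median of 20.2 RPKM over the 11937 genes. Their median mean level was 7.18 RPKM in silicon, 26.9 RPKM in salt and 37.2 RPKM in salt plus silicon libraries. Library by library, the median over the members was 30.7, 24.6 and 23.9 RPKM in control 1, 2 and 3 and 6.31 and 8.84 RPKM in silicon 1 and 2. It was 31.4, 22.8 and 59.0 RPKM in salt plus silicon 1, 2 and 3. The distance between the silicon libraries and these other libraries is what the rule asked for and is given only as a description.

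**Figure D1:**
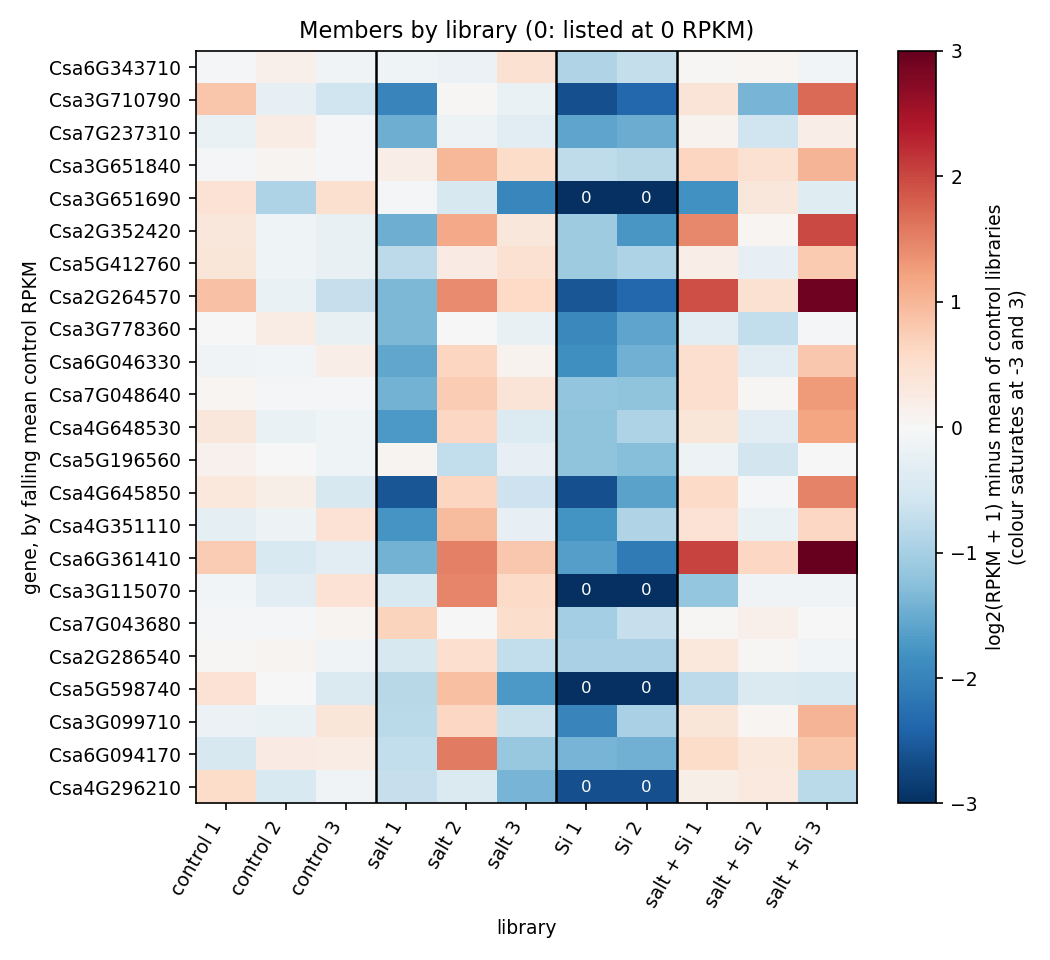
Colour shows log2(RPKM + 1) minus the mean of the control libraries for the 23 members (rows, by falling mean control level) in the 11 libraries (columns), with black lines between groups and 0 where a gene is listed at 0 RPKM. The silicon columns are low by choice, while in the salt columns, which were not used for the choice, salt 1 is below the control mean in most rows and salt 2 above it in many.

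The limit of the rule was set by the control side in 12 members and by the salt plus silicon side in 11. The member nearest the limit was Csa6G343710, which also had the highest control level. It was at 222, 260.2 and 217 RPKM in control, 124 and 142 in silicon, and 237, 243 and 219 in salt plus silicon libraries. Next inside was Csa4G351110, at 14.2, 15.5 and 23.9 RPKM in control, 4.34 and 8.84 in silicon, and 24.0, 15.1 and 27.3 in salt plus silicon libraries. Their silicon libraries lay 1.52-fold and 1.55-fold below the nearest library of the high side on RPKM + 1. Just outside were Csa1G168360 at 1.496-fold and Csa1G534780 at 1.487-fold. Csa1G168360 stood at 31.2, 26.6 and 35.4 RPKM in control and 17.1 and 17.5 in silicon libraries, so genes on either side of the limit differ little. Csa1G534780 stood at 206, 185 and 154 RPKM in control and 62.3 and 103 in silicon libraries, and its higher silicon library kept it out.

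The widest ranges between salt plus silicon libraries were those of Csa3G710790, Csa6G361410 and Csa2G264570. Csa3G710790, the second highest in control, was at 170.1, 79.5 and 61.9 RPKM in control 1, 2 and 3 and at 14.4 and 17.6 RPKM in silicon. It was at 23.1, 96.9 and 82.6 RPKM in salt and at 124, 35.4 and 306 RPKM in salt plus silicon 1, 2 and 3. Its salt 1 library was close to silicon, and its salt plus silicon libraries reached from below to above its control libraries. Csa2G264570 was at 70.5, 32.8 and 22.9 RPKM in control, 5.56 and 6.60 in silicon, 14.2, 102 and 57.0 in salt, and 148, 51.8 and 289.6 RPKM in salt plus silicon libraries. Csa6G361410 was at 27.6, 11.3 and 12.7 RPKM in control, 4.36 and 2.88 in silicon, 5.35, 46.8 and 28.4 in salt, and 67.5, 25.2 and 147 in salt plus silicon libraries. In all of these, salt 1 was the lowest salt library, salt plus silicon 2 the lowest and salt plus silicon 3 the highest of its group.

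That order of libraries was shared by many members. Salt 1 was the lowest and salt 2 the highest salt library in 14 of 23 members, against 22.9% of the 11937 genes. Since the rule did not use the salt libraries, this order is not built into the choice, but the members were not tested against other genes for it. Salt plus silicon 2 was the lowest and salt plus silicon 3 the highest of that group in 16 of 23 (2393 of the 11937 genes), and both orders held in 13 of 23 (5.28%). These 13 genes were picked by that order, so their varying together between libraries of one treatment is set by the choice. Members of a list that vary together are not independent of each other, so these counts rest on few libraries, not on 23 separate observations.

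**Figure D2:**
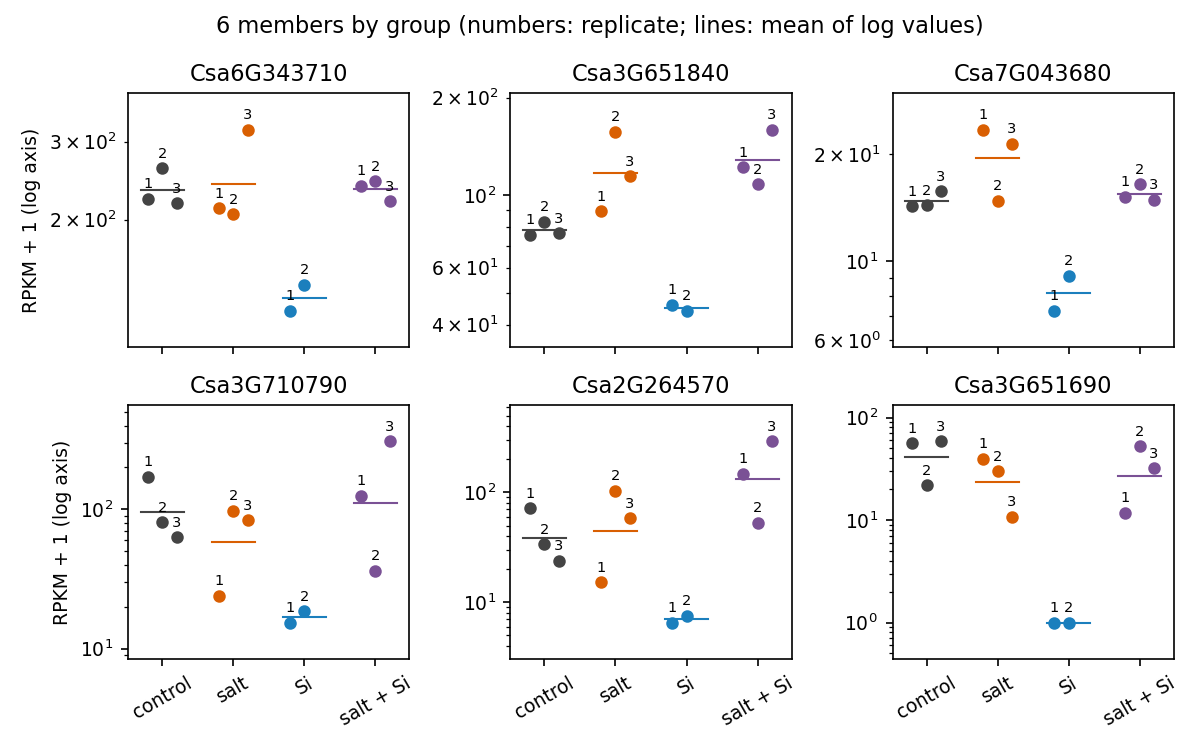
RPKM + 1 on a log axis in each library of 6 members, grouped by treatment, with the replicate number above each point and the mean of the log values as a line. Csa3G710790 and Csa2G264570 show the shared order in salt and salt plus silicon, Csa6G343710 and Csa7G043680 vary little within control and salt plus silicon, and Csa3G651690 is listed at 0 RPKM in silicon, drawn at 1.

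The salt libraries of the members lay far apart. The log2 range between the lowest and highest salt library had a median of 1.91 in the members and 0.54 over the 11937 genes. It reached 2-fold or more on RPKM + 1 in 18 of 23 members and in 21.4% of the 11937 genes, a difference that was not tested. In control libraries the median range was 0.55 in the members and 0.59 over the 11937 genes, and in salt plus silicon libraries 1.02 and 0.41. The rule asks for control and salt plus silicon libraries that all stay above silicon, whereas the salt libraries were unlimited. Whether that bears on the ranges was not tested. Among the 13 members with both orders the median salt range was 2.22, and among the other 10 it was 1.23, a split made on these same values.

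To place salt between the other groups, each salt library was set on a log2 scale on which the silicon mean of the gene is 0 and its control mean is 1. Salt 1 had a median position of 0.45 (from -0.59 to 1.77), salt 2 one of 1.35 (from 0.41 to 2.26) and salt 3 one of 0.87 (from 0.20 to 1.69). The median of salt 1 thus lay about midway, that of salt 2 above the control mean and that of salt 3 nearer to control than to silicon. In the 13 members with both orders the median positions were 0.05, 1.57 and 0.92 for salt 1, 2 and 3. In the other 10 they were 0.80, 1.13 and 0.72. The 13 were picked for a low salt 1 and a high salt 2 library after their values were seen, so this split sets the contrast between the sets and is no result.

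**Figure D3:**
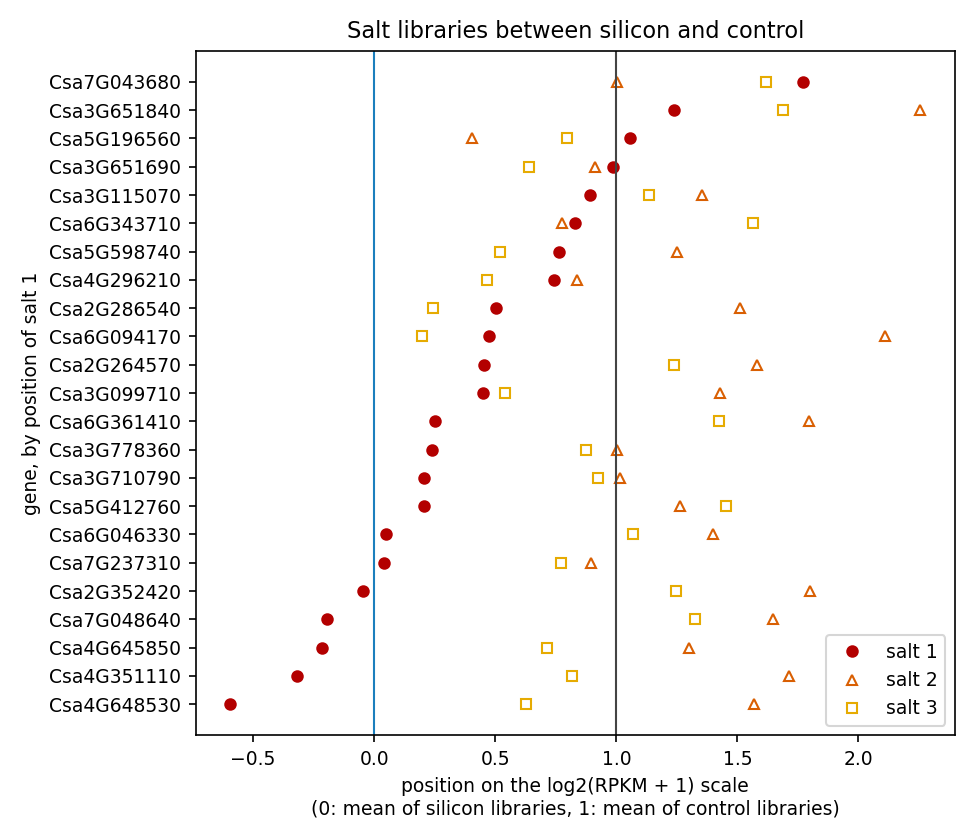
Position of the 3 salt libraries for each of the 23 members on the log2(RPKM + 1) scale, with the silicon mean at 0 and the control mean at 1. Salt 1 (filled circles, median 0.45) spreads from below silicon to above control, while salt 2 (triangles, median 1.35) and salt 3 (squares, median 0.87) are to the right of 0 in every member.

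Salt 1 was at or below the highest silicon library in 6 of 23 members, and salt 2 and salt 3 in 0 of 23. Over the 11937 genes these shares were 68.4%, 54.7% and 71.3%. Salt 1 was at most 1/1.5 of the lowest control library in 12 of 23 members (10.4% of the 11937 genes). The same held for salt 2 in 1 member (5.92%) and for salt 3 in 5 (12.1%). Taken over all 3 salt libraries, no member was that far below control (0 of 23, 2.46% of the 11937 genes), and in 7 of 23 every salt library was at least 1.5 times the highest silicon library (2.04%). Without salt 1 the latter count, which leaving out a library can only raise or keep, was 17 of 23 (3.41%). Salt and control libraries overlapped in 22 of 23 members (69.9%), and the exception was Csa3G651840. Because the control libraries entered the rule on the high side and the silicon libraries on the low side, salt is placed below control and above silicon in part by the choice.

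No member differed between salt and control by the test. With limma on log2(RPKM + 1) over all genes, 0 of 23 passed an adjusted p of 0.05, where 9.12% of the 17408 tested genes did, and 1 of 23 had an unadjusted p under 0.05. All 23 members passed the filter for the test. The estimated change was negative in 16 and positive in 7, with a median of -0.26, or -0.24 without the 4 members listed at 0 in silicon, against 0.11 over all tested genes. The share of all genes called was itself uneven, at 3.72% without salt 1, 3.42% without salt 3, 2.60% without control 2 and 2.10% in a fit of the 6 compared libraries alone, and at such shares a count of 0 of 23 does not set the members apart from other genes. The median turned to 0.14 without salt 1, with 14 positive and 9 negative. It was -0.14 without control 3, -0.41 after median-of-ratios scaling and -0.72 without salt 2, where 2 members and 11.1% of all genes were called. A p above the threshold does not show equal levels, and with libraries this far apart the standard errors were wide.

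The members at the ends of this comparison were not called. Csa3G651840 was at 74.8, 82.1 and 75.6 RPKM in control and 88.5, 156 and 114 RPKM in salt libraries, without overlap. Its log2 change was 0.58 ± 0.22 (SE, limma adjusted p = 0.115). Csa3G115070 was at 15.5, 12.9 and 22.6 RPKM in control and 11.8, 47.1 and 24.9 RPKM in salt libraries, which overlap, a change of 0.52 ± 0.46 (adjusted p = 0.494). At the other end, Csa4G645850 was at 26.1, 23.5 and 14.5 RPKM in control and 2.66, 32.7 and 13.2 RPKM in salt libraries. Only salt 1 was far below control, and the change of -0.85 ± 0.72 (adjusted p = 0.476) became 0.01 without it. Csa4G296210, a gene of low level, was at 8.14, 3.53 and 4.80 RPKM in control and 2.88, 3.61 and 1.35 RPKM in salt libraries, a change of -0.84 ± 0.38 (adjusted p = 0.182).

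Against silicon, the salt mean was higher in all 23 members, with a median log2 difference of 1.27 (1.24 without the 4 listed at 0), against -0.04 over all tested genes. Of the 23 members 8 passed the test, all higher in salt, where 2.19% of the 17408 genes were called higher. Part of this is built in, since silicon was chosen low, and only the salt side is free. The count was 13 without salt 1 (1.68% of all genes), 2 without silicon 1 (0.360%) and 3 without silicon 2 (0.697%), so without either silicon library the share of all genes fell as well. It was 2 in a fit of the 5 compared libraries alone (0.704%) and 4 (2.16% of the genes left) when genes listed at 0 throughout a compared group were not counted.

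Of the called members, 4 had values above 0 in every library. Csa3G651840 was at 45.1 and 43.2 RPKM in silicon, below its 3 salt libraries given above, a log2 difference of 1.38 ± 0.24 (SE, limma adjusted p = 0.00741). Csa7G043680 was at 6.26 and 8.10 RPKM in silicon and 22.5, 13.8 and 20.4 RPKM in salt libraries, a difference of 1.27 ± 0.22 (adjusted p = 0.00662). The control libraries of Csa7G043680, at 13.3, 13.4 and 14.8 RPKM, overlapped its salt libraries. The calls of Csa3G651840 and Csa7G043680 were lost without silicon 1 and in the fit of the 5 compared libraries alone, and that of Csa3G651840 also without silicon 2.

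Csa6G343710 was at 211, 205 and 318 RPKM in salt libraries, all above its silicon libraries and overlapping its control libraries. Its difference from silicon was 0.85 ± 0.21 (SE, limma adjusted p = 0.0305). Csa5G196560 was at 26.1, 14.5 and 20.7 RPKM in salt, 10.2 and 9.67 in silicon, 27.1, 24.7 and 22.7 in control, and 22.3, 16.5 and 24.8 RPKM in salt plus silicon libraries. Salt was above silicon by 0.93 ± 0.25 (adjusted p = 0.0463), in a gene where salt 1 was the highest salt library. Both calls were lost without either silicon library, after median-of-ratios scaling, with a replicate block and in the fit of the 5 libraries alone. That of Csa6G343710 was also lost without salt 3 or without salt plus silicon 1 or 2. That of Csa5G196560 was lost in 9 of 11 fits with 1 library left out, among them those without salt 1 and without salt 3, and without a filter.

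The other 4 called members were listed at 0 in both silicon libraries, and for them no fold can be given. Csa3G651690 was at 55.5, 20.9 and 57.4 RPKM in control, 38.8, 29.1 and 9.81 in salt, and 10.8, 51.6 and 31.2 RPKM in salt plus silicon libraries. Csa3G115070, with control and salt values above, was at 6.87, 15.2 and 15.2 RPKM in salt plus silicon libraries. For both genes each library outside silicon was at 6.87 RPKM or more.

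Csa5G598740 was at 14.9, 10.7 and 7.73 RPKM in control, 5.56, 20.8 and 2.58 in salt, and 5.87, 7.73 and 7.49 RPKM in salt plus silicon libraries. Csa4G296210 was at 6.05, 6.56 and 2.53 RPKM in salt plus silicon libraries. The calls of Csa5G598740 and Csa4G296210 were lost in the fit of the 5 compared libraries alone, among other fits. That of Csa4G296210 was also lost without salt 1 and without salt 2. An exact 0 in such a table can be a failed estimate, and a group at 0 has no spread, which lowers the p-values of these genes. Of all genes, 9 were listed at 0 in both silicon libraries and above 0 in the other 9 libraries, and 4 of them were members. The same pattern for a group of 3 libraries held in 5 genes for control, 3 for salt and 1 for salt plus silicon.

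Salt plus silicon and control were both on the high side of the rule, which did not set one against the other. By limma 0 of 23 members differed between them, where 6.33% of all tested genes did, and 3 of 23 had an unadjusted p under 0.05. The count was 1 without salt 2 (8.15%). Over all genes the share fell to 1.75% without control 2 and to 1.88%, 2.53% and 1.24% without salt plus silicon 1, 2 and 3. Salt plus silicon had the higher mean in 16 of 23 members (58.5% of the 11937 genes) with a median log2 difference of 0.25 (0.32 without the 4 listed at 0), against 0.14 over all tested genes. That median was 0.53 without salt plus silicon 2, 0.13 without control 3 and 0.10 without salt plus silicon 3, where all tested genes had 0.12, 0.14 and 0.12, so whether the members lay above all genes rested on single libraries. After scaling by median of ratios it was higher in 13 of 23 (44.0% of the 11937 genes) with a median of 0.07, and after quantile normalization in 13 of 23 (49.4%) with a median of 0.17. Its libraries were all above the highest control library in 2 of 23 members (21.0%). Csa3G651840 was at 121, 107 and 158 RPKM in salt plus silicon libraries, above all of its control libraries, with a log2 difference of 0.71 ± 0.22 (SE, adjusted p = 0.0794).

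Between salt plus silicon and salt, 0 of 23 members passed the test, 0 of 23 had an unadjusted p under 0.05, and 0.0172% of all tested genes were called. The estimate was higher with silicon added in 19 of 23, with a median of 0.58 (0.64 without the 4 listed at 0) against 0.03 over all tested genes, and the salt plus silicon side had been chosen high. Without salt 1 it was higher in 14 of 23, with a median of 0.21, and without salt plus silicon 3 in 17 of 23, with a median of 0.37. Without salt 2 the median was 0.92 and 11 of 23 members had an unadjusted p under 0.05 (1103 of 17268 genes). Without salt plus silicon 2 it was 0.80 and 6 of 23 had one (598 of 17322 genes). The number of members called stayed at 0 in each of these fits.

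The contrasts that the rule used are given beside their background and are not read further. Silicon was lower than control in 23 of 23 members by choice, with 9 of 23 called lower by limma (0.977% of all tested genes). The median log2 difference was -1.47, and -1.41 without the 4 listed at 0. The 9 calls were 1 without silicon 1 (0.0174% of all genes), 4 without silicon 2 (0.917%), 4 without control 2 (0.132%) and 3 in the fit of the 5 compared libraries alone (0.0542%). They were 6 without control 3 (0.306%), 6 without salt plus silicon 1 (0.467%) and 6 with a replicate block (0.477%). The lowest difference among members with values above 0 in silicon was that of Csa3G710790, at -2.50 ± 0.86 (SE, limma adjusted p = 0.101), and Csa6G343710 was at -0.81 ± 0.21 (adjusted p = 0.0403). The latter call was lost in the fit of the 5 compared libraries alone, with a replicate block, and in 7 of 11 fits with 1 library left out, those without control 2 or 3, either silicon library or any salt plus silicon library. The interaction of salt and silicon was called in 2 of 23 members, both higher (0.184% of all tested genes), and both were listed at 0 in silicon. That count was 9 without salt 2 (0.452%), 4 without control 1 (0.601%), and 0 or 1 without any other library, where from 0.00580% (without silicon 1) to 0.0981% (without control 3) of all genes were called higher.

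By the digit after the letters of the ID, 6 members carried 3, as did 21.1% of the 11937 genes. The digits 4 and 6 were carried by 4 members each (12.4% and 16.7%), the digits 2, 5 and 7 by 3 each (12.6%, 13.1% and 9.84%), and the digit 1 by 0 (13.8%). These shares were not tested. No member was next to another in the ID order. Of the 46 neighbours in that order, 28 had a mean control level of 5 RPKM or more, and 19 of those had a lower mean in silicon than in control on the log2 scale, against 40.3% of the 11937 genes. The median over the 28 was -0.26, against 0.14 over the 11937 genes, and 2 of them were lower by 1 or more (3.54%). These neighbours were not tested against other genes. One was Csa3G710780, next to Csa3G710790, which was at 93.3, 78.8 and 84.1 RPKM in control, 22.5 and 24.7 in silicon, 32.7, 93.6 and 64.8 in salt, and 137, 37.0 and 255 RPKM in salt plus silicon libraries. Its libraries stood in the same order as those of Csa3G710790 in salt and in salt plus silicon. It missed the rule at 1.48-fold, by salt plus silicon 2. Whether reads are shared between the neighbours was not tested. The other was Csa7G043690, next to Csa7G043680, with a difference of -1.27.

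The size of the module depended most on silicon 2, and also on other libraries, on scaling and on the fold. Leaving out a library can only loosen the rule, apart from its mean control level. The rule gave 484 genes when silicon 2 was left out and 50 when silicon 1 was left out. It gave 51 without control 3, 40 without salt plus silicon 2, and between 24 and 31 without any other control or salt plus silicon library. With median-of-ratios scaling it gave 40 genes and with quantile normalization 71, and all 23 members were among them in both cases. A fold of 2 in place of 1.5 left 9 genes.

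The mirror rule, for genes at least 1.5 times higher in both silicon libraries than in any control or salt plus silicon library with a mean silicon level of 5 RPKM or more, gave 914 genes. It gave 831 and 732 after the same scalings, and 1449 without silicon 2. Lowered genes of this kind were thus fewer than raised ones under each of these settings, a count without a test. The same held for silicon against control as a whole. There limma called 1459 of the 17408 tested genes higher (8.38%) and 170 lower (0.977%), so the uneven counts are not particular to these rules. The rule that asks for salt, silicon and both to be at most 1/1.5 of the lowest control gave 21 genes, or 0.176% of the 11937. It held 0 of the 23 members, which says nothing at that share, and both rules constrain the same control, silicon and salt plus silicon libraries.

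**Figure D4:**
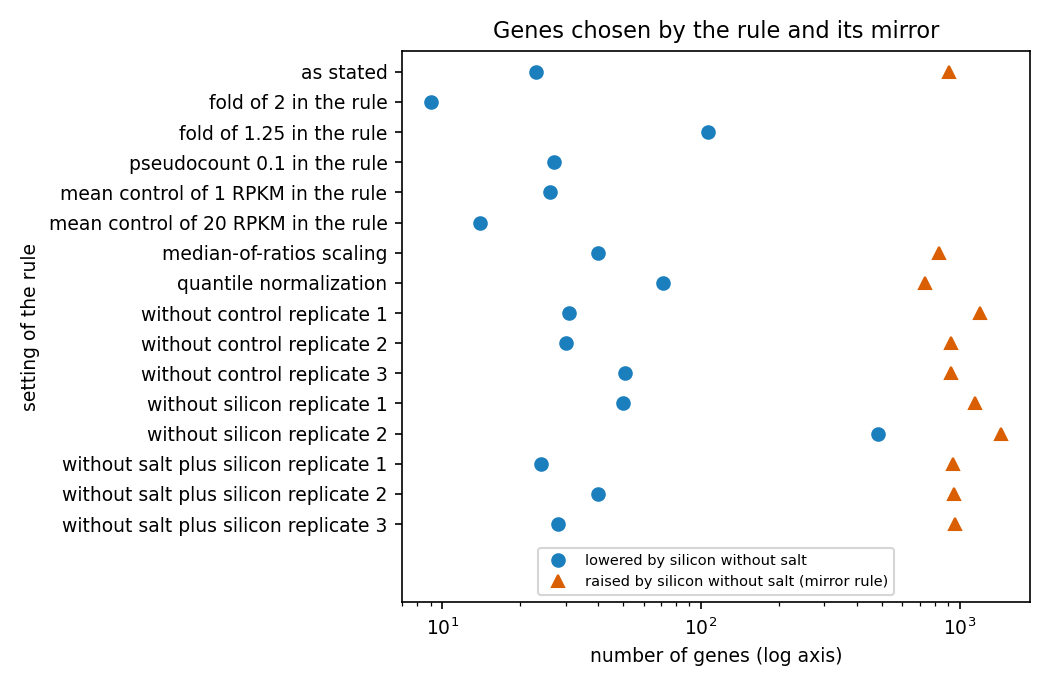
Number of genes on a log axis chosen by the rule (circles) and by its mirror for raised genes (triangles, not computed for other folds, pseudocounts and levels) as stated and under other settings. The circles lie between 9 and 484 and the triangles between 732 and 1449.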

How the data were processed

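Leaf poly(A) RNA of 11 libraries was sequenced without keeping strand, per the labels' protocols, so reads of genes that overlap on opposite strands are mixed. The authors deposited RPKM, 1 value for each gene and library, going by how the deposited tables are named. The submitters' processing notes name TopHat2. The program that counted, the build, the annotation and all versions are not given in the sources used.

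The rule was applied to the deposited RPKM + 1. Tests used log2(RPKM + 1) of the 17408 genes that reached 1 RPKM in 2 or more libraries. All 11 libraries entered 1 limma fit (version 3.58.1, R 4.3.3) of group means with a mean-variance trend, which left 7 residual degrees of freedom. Tests were two-sided, p-values were adjusted by Benjamini-Hochberg over all 17408 genes, and adjusted p under 0.05 was called. Differences on this scale understate those of low genes. The fit was run on simulated data with independent noise and large known changes added in the salt libraries only, for salt against control. That run did not cover small changes, changes in silicon, groups listed at 0 or genes that vary together. Tables and plots were made with Python 3.11.15, pandas 2.3.3, numpy 2.4.6 and matplotlib 3.10.9. Any 2 libraries had at most 1 identical value above 0. The labels call the libraries biological replicates.

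The members, rules and tests were chosen with earlier results of these data known. Members were named for the lowest change with silicon, the highest control level, the highest and lowest change with salt, and nearness to the limit of the rule. Others, among them the called members, those listed at 0, those with uneven libraries and neighbours, were named after their values were seen. Alternatives were a pseudocount of 0.1, fits with no filter or with 5 RPKM as the filter, quantile normalization, scaling by median of ratios, a block for the replicate number, fits of only the groups compared, and each library left out in turn. Counts without genes listed at 0 and settings of the mirror rule were added after seeing the data.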

Additional observations from a re-analysis of the deposited data

Results flagged for a closer look

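The interaction of salt and silicon was called in 2 members and its estimate was positive in 23 of 23. The rule used the control, silicon and salt plus silicon libraries, so this sign was in part built in. The calls are a description and no support for a silicon effect that differs with salt. For Csa3G651690 and for Csa4G296210 the limma adjusted p was 0.0238 each. Both were listed at 0 in both silicon libraries, so the fitted interaction is no measure of size, and the rule had chosen them for a low silicon and a high salt plus silicon level. The call of Csa3G651690 was lost in 5 of 11 fits with 1 library left out and with a replicate block, and that of Csa4G296210 in 8 of 11, each also without either silicon library.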

How the results depend on the processing

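With 1 library left out in turn, the number of members ran from 24 to 484 and that by the mirror rule from 927 to 1449. It was 9 with a fold of 2, 106 with a looser fold, 14 with a control level of 20 RPKM, and 40 and 71 after median-of-ratios scaling and quantile normalization. Members with every salt library 1.5 times above silicon numbered 8 to 17 with 1 salt library left out. Leaving out a library can only loosen these rules, apart from the mean level they ask for, so rises of these counts were built in. Calls ran from 0 to 2 for salt against control, 0 to 1 for salt plus silicon against control, 2 to 13 for salt against silicon, 1 to 13 for silicon against control and 0 to 9 for the interaction, and stayed at 0 for salt plus silicon against salt. Calls over all genes, in both directions together, moved too. With both silicon libraries kept, they ran in the same order from 452 to 1922, 215 to 1408 and 990 to 1837. The remaining ranges were 538 to 2515, 60 to 1228 and 3 to 12. Members and all genes did not always move alike. Without salt 1, members called higher in salt than in silicon rose from 8 to 13, while all genes called higher fell from 382 to 292. Without control 2, members called lower in silicon than in control fell from 9 to 4, and all genes from 170 to 23. Whether the ranges are particular to the members was not tested. Where leaving out a library left 1 silicon library, that library was assumed to vary like the other groups. Fits of the compared groups alone called 2 members for salt against silicon (940 of all genes) and 3 for silicon against control (102). Without genes listed at 0 these counts were 4 and 5, and 0 for the interaction. The interaction was called in 4 members with a pseudocount of 0.1, in 4 after median-of-ratios scaling and in 4 after quantile normalization. For these counts the cause was not tested.

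The salt change of Csa4G645850 ran from -1.59 to 0.012 with 1 library left out and was positive without salt 1. Of 286 changes of named members under alternatives, 228 kept their direction and side of the threshold, 57 lost the call and 1 turned.

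A replicate block lowered the calls to 1 for the interaction, 6 for salt against silicon and 6 for silicon against control, where calls over all genes fell from 339 to 175, from 1657 to 1180 and from 1629 to 1031. Whether the numbers pair the libraries was not tested, and the values here do not settle it. Deviations of same-numbered libraries from their group means correlated between -0.195 and 0.156, and in 17 of 30 cases a library correlated best with its own number in another group. That other group offered 3 libraries, or 2 for silicon, and no chance level was worked out for the count. The deviations of the silicon libraries are equal and opposite by construction, so the cases with silicon are not separate.

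Depth is unknown, so no detection limit can be set for genes of low level such as Csa4G296210.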
